A study of Rattus norvegicus with 12 samples.

Results

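The genes described here are those of the rat mitochondrial genome, found by taking every entry of the count table whose chromosome was listed as MT. There were 37 of them among 34599 genes, namely 13 protein-coding genes, 2 ribosomal RNA (rRNA) genes and 22 transfer RNA (tRNA) genes. RNA was taken from the left ventricle (LV) of 12 male Sprague-Dawley rats on day 1 after surgery, 4 rats in each of 3 groups, and was sequenced from total RNA. Sham rats had the chest opened without tying the left anterior descending coronary artery, and MI rats had that artery tied to make a myocardial infarct and received no treatment. The iCarP+/Light+ rats had the same ligation, an injection of Chlorella (a photosynthetic green alga) into the infarcted LV wall, a light-guiding polyester patch (iCarP) glued over it with the adhesive CCS@gel, and illumination through the patch. The effects of alga, patch, adhesive and light cannot be told apart in this group, and a group with the patch and no light was not analysed here. Rats are numbered as in the labels (Sham 1, 2, 3 and 5, MI 1, 3, 4 and 5, iCarP+/Light+ 1, 2, 4 and 5), and a number does not tie a rat of one group to a rat of another.

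Mitochondria keep a small circular genome of their own, which codes for core subunits of the respiratory chain, while all other subunits of the chain are coded in the nucleus and imported. The mitochondrial RNA polymerase copies each strand as a long precursor, and excision of the tRNAs that lie between the other genes releases the mRNAs and rRNAs, so the final level of each RNA depends on copying, cutting and decay together. The 12S and 16S rRNAs form the small and the large subunit of the mitochondrial ribosome, which translates only the mRNAs of this genome. Heart muscle is densely packed with mitochondria, and mitochondrial mRNAs are among its most abundant transcripts.

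The table placed the 37 genes on the MT sequence of build rn6, with bases counted from the first base of that sequence and with each protein-coding gene listed as an uninterrupted stretch without introns. The 12S gene (ENSRNOG00000030478, bases 68 to 1025) and the 16S gene (ENSRNOG00000043866, bases 1094 to 2664) lay side by side with 1 tRNA gene between them, and were told apart by their order and their lengths of 958 and 1571 bases. Of the genes for complex I, which takes electrons from NADH, ND1 lay at bases 2740 to 3694, ND2 at 3904 to 4942, ND3 at 9451 to 9798, ND4L at 9870 to 10166, ND4 at 10160 to 11537, ND5 at 11736 to 13565 and ND6 at 13543 to 14061. CYTB, the cytochrome b of complex III, lay at bases 14136 to 15278. Of the 3 catalytic core subunits of complex IV, cytochrome c oxidase, COX1 lay at bases 5323 to 6867, COX2 at 7006 to 7689 and COX3 at 8599 to 9382. The membrane subunits of ATP synthase, ATP8 and ATP6, lay at bases 7758 to 7961 and 7919 to 8599. ND6 was the only 1 of the 13 mRNA genes listed on the minus strand.

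Some neighbours share bases: ATP8 and ATP6 overlapped by 43 bases, ND5 and ND6 by 23 and ND4L and ND4 by 7. How reads over such bases were assigned, and whether strand was used, is not given in the sources used here, so counts of these genes are uncertain to that extent. ATP8 was the extreme case, with 87 to 451 counts per rat against 151743 to 615761 for ATP6.

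The libraries held 16806502 to 17136958 counts in the Sham rats, 14898054 to 16923619 in the MI rats and 14064414 to 16775369 in the iCarP+/Light+ rats. A level is given in CPM, the counts of a gene relative to the size of its library, with TMM scaling. Where stated, it is given as CPM of total counts without that scaling. TMM sets library sizes on the assumption that most genes do not shift between rats. With TMM 33.6% of all genes were called lower and 30.2% higher for MI minus Sham, so the assumption may not hold there. The mean TMM factor was 0.814 for Sham, 1.22 for MI and 1.01 for iCarP+/Light+ rats, so the choice of scale moved every gene in a comparison by about the same amount. The median log2 fold change of all 15101 genes tested was -0.06 with TMM and 0.52 with total counts for MI minus Sham, 0.01 and -0.25 for iCarP+/Light+ minus MI, and 0.02 and 0.33 for iCarP+/Light+ minus Sham. Among all called genes the share that was higher went from 47.3% with TMM to 73.5% with total counts for MI minus Sham, from 85.2% to 30.7% for iCarP+/Light+ minus MI, and from 50.3% to 64.7% for iCarP+/Light+ minus Sham. A call is an adjusted p below 0.05 in edgeR's quasi-likelihood test over all 15101 genes.

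The LV label was checked against 17 cardiomyocyte marker genes, whose summed level was 79657 to 85117 CPM in the Sham rats, 6159 to 12456 in the MI rats and 5386 to 14168 in the iCarP+/Light+ rats. Of the 17 markers 16 were lower in MI than in Sham, where 33.6% of all genes were called lower, and none was called between iCarP+/Light+ and MI, where 11.6% of all genes were called higher and 2.01% lower. The summed level of 9 neutrophil markers was 134 to 163 CPM in the Sham rats, 491 to 813 in the MI rats and 3234 to 9079 in the treated rats, and against MI all 9 passed the test as higher in the treated hearts, beside those 11.6% of all genes. The 8 red blood cell markers summed to 8045 to 10838 CPM in the Sham rats, 2558 to 7121 in the MI rats and 6333 to 17744 in the treated rats, and 4 of the 8 passed as higher in the treated hearts than in MI, again beside 11.6%. The 9 monocyte or macrophage markers summed to 402 to 627, 4154 to 7118 and 3264 to 5340 CPM, the 10 fibroblast markers to 9066 to 11196, 2911 to 3385 and 1552 to 3253 CPM, and the 9 endothelial markers to 1844 to 2076, 906 to 1321 and 1131 to 1314 CPM in the same order of groups. No marker on these lists was at 0 in every rat apart from 1 endothelial gene. In bulk tissue, fewer cells of a type and less RNA per cell cannot be told apart, and the part that these shifts in markers have in the results below was not tested.

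Genes of the mitochondrial genome took a far larger part of all counts in the hearts of Sham rats than in infarcted hearts, treated or not. Their share of the library was 25.8%, 22.8%, 28.9% and 26.4% in Sham rats 1, 2, 3 and 5, which is 26.0% ± 2.49 (SD, n = 4). It was 8.52%, 11.5%, 9.40% and 11.0% in MI rats 1, 3, 4 and 5 (10.1% ± 1.40, SD, n = 4). It was 14.2%, 12.1%, 7.89% and 7.14% in iCarP+/Light+ rats 1, 2, 4 and 5 (10.3% ± 3.36, SD, n = 4). Every infarcted rat lay below every Sham rat, and the MI and iCarP+/Light+ rats overlapped, with the spread widest in iCarP+/Light+. The share is described without a test, because it sums over the genes.

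The mRNAs made up nearly all of this share, 25.5% ± 2.47 of the library for Sham, 9.82% ± 1.35 for MI and 9.87% ± 3.35 for treated rats (SD, n = 4 each). The rRNAs made up a small part and followed another order. Whether rRNA was removed or other RNA selected before sequencing is not given in the sources used here. The part of such a step in the rRNA counts was not tested, here or below. Their share of the library was 0.468%, 0.457%, 0.516% and 0.455% in the Sham rats, 0.250%, 0.375%, 0.255% and 0.249% in the MI rats, and 0.374%, 0.573%, 0.419% and 0.401% in the iCarP+/Light+ rats. All MI rats were below all Sham rats, while of the iCarP+/Light+ rats number 1 lay at the top of the MI range, numbers 4 and 5 between the ranges and number 2 above both. As a part of the mitochondrial counts alone, a measure that needs no scaling between libraries, the rRNAs took 1.72% to 2.00% in the Sham rats, 2.27% to 3.25% in the MI rats, and 2.64%, 4.75%, 5.32% and 5.62% in iCarP+/Light+ rats 1, 2, 4 and 5. The MI range lay above the Sham range, and of the iCarP+/Light+ rats 3 lay above every MI rat, with iCarP+/Light+ rat 1 inside the MI range. The tRNAs took 0.0038% to 0.0185% of a library.

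**Figure D1:**
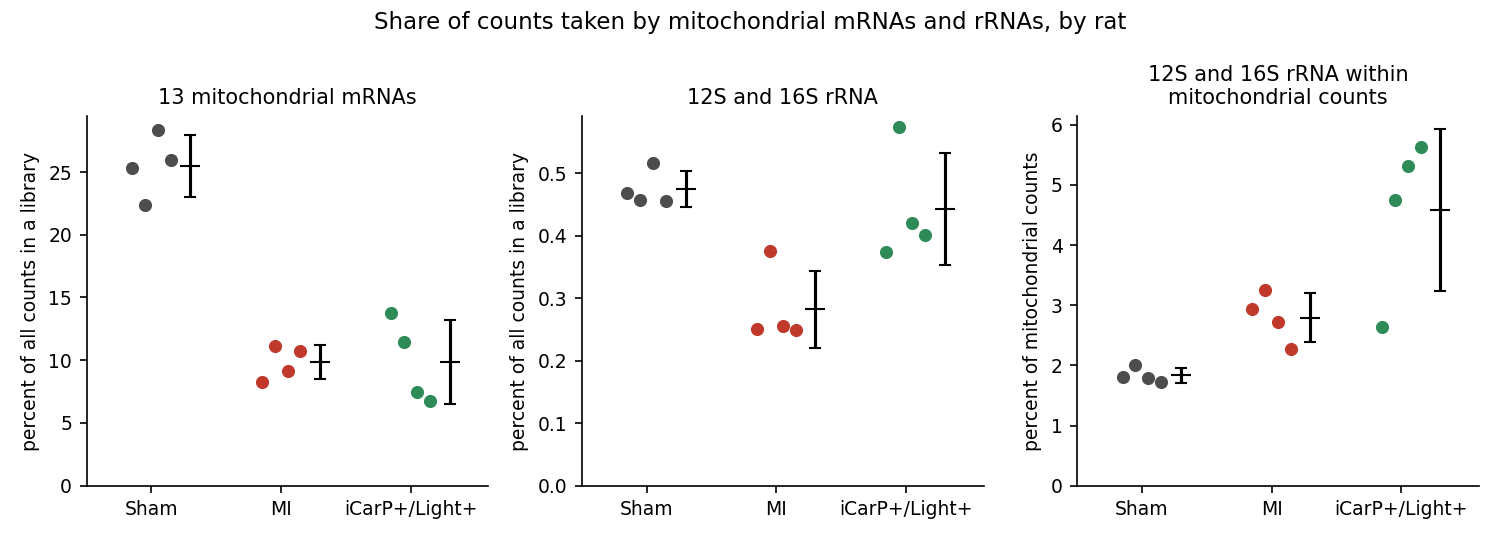
The points are the 12 rats, 4 per group, and the bar beside them is the mean ± SD. The left panel plots the 13 mRNAs and the middle panel the 2 rRNAs as percent of all counts in a library, and the right panel plots the rRNAs as percent of mitochondrial counts. The mRNA share is about 25.5% in Sham and 9.82% and 9.87% in the infarcted groups, while the rRNA part of mitochondrial counts reaches 5.62% in iCarP+/Light+.

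Per kilobase of gene, the order of the mRNAs in Sham hearts ran from the complex IV and ATP synthase mRNAs at the top to complex I mRNAs and ATP8 at the bottom. COX1 stood at 67718 ± 8620 TMM-normalized CPM per kilobase, ATP6 at 60582 ± 8618, COX3 at 55886 ± 6892, COX2 at 38941 ± 5266 and CYTB at 30863 ± 4462 (SD, n = 4 each). The ranges of COX1, ATP6 and COX3 overlapped one another, so their order is not resolved, and so did the ranges of COX2 (33428 to 45879) and CYTB (24986 to 35580). Of the complex I mRNAs, ND1 was at 23925 ± 3595, ND2 at 16892 ± 2405, ND3 at 11682 ± 835, ND4L at 6697 ± 888, ND5 at 6166 ± 1147, ND6 at 5297 ± 1033 and ND4 at 1773 ± 235. Neighbours in this order overlapped in range from CYTB to ND1 and from ND1 to ND2, and again among ND4L, ND5 and ND6, whereas ND3 lay apart from both of its neighbours. ND4L and ND4, which overlap by 7 bases on the map, were far apart in level, but how reads that fit several places were counted is not known, and the levels of ND4, ATP8 and the tRNAs are uncertain for that reason. ATP8 was lowest at 122 ± 19.5. The rRNAs stood at 3026 ± 322 for 12S and 1874 ± 158 for 16S, so 12S lay above ND4 and ATP8 and below every other mRNA, and 16S overlapped ND4. Because any selection of RNA before sequencing is not known, the rank of the rRNAs among the mRNAs is uncertain.

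As a part of all mitochondrial mRNA counts, COX1 took a mean of 33.3% in the Sham rats, 30.3% in the MI rats and 29.4% in the treated rats, and COX3 took 13.9%, 15.6% and 17.9% in the same order. ND1 took 7.25%, 6.77% and 6.17%, and ND6 0.868%, 1.01% and 0.833%. The make-up of the mRNA pool is given as a description, with no test.

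**Figure D2:**
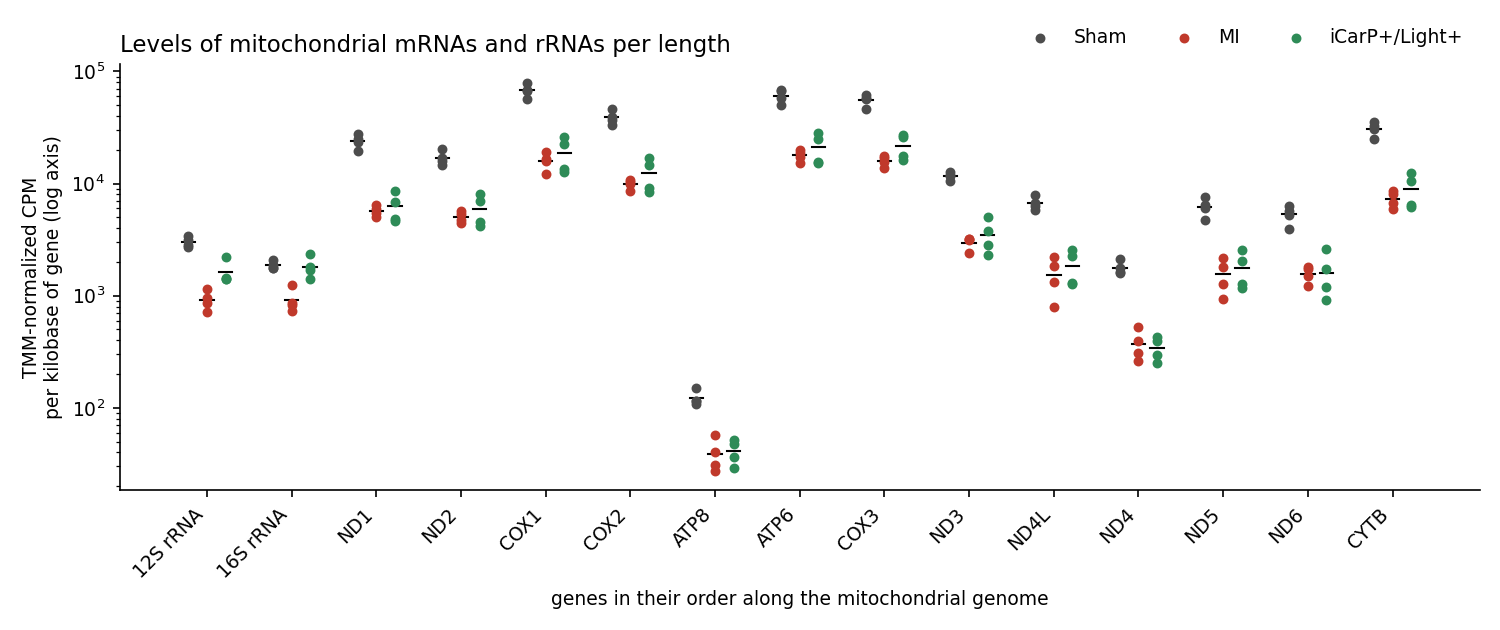
Points are single rats (4 per group) and black bars are group means of the TMM-normalized CPM per kilobase of gene, on a log axis, with the genes in map order. Sham points lie above both infarcted groups for every mRNA, whereas for 16S rRNA the iCarP+/Light+ rats (1400 to 2360) overlap the Sham rats (1758 to 2099).

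Infarction was compared with sham surgery to see how the mitochondrial transcripts stood in the LV on day 1. All 24 mitochondrial genes that passed the filter on low counts were lower in MI than in Sham hearts (13 of 13 mRNAs, 2 of 2 rRNAs and 9 of 9 tested tRNAs), and none was higher. Among all genes tested 33.6% were called lower and 30.2% higher in this comparison. For each of the 24 genes every MI rat lay below every Sham rat on the TMM scale, which held for 31.4% of all genes tested. The median log2 fold change was -1.98 for the mRNAs, against -0.06 for all genes.

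COX1, the subunit of cytochrome c oxidase that binds the oxygen to be reduced, took the most counts of the mitochondrial mRNAs, without correction for gene length. It stood at 106097, 87997, 120528 and 103876 TMM-normalized CPM in Sham rats 1, 2, 3 and 5 and at 18782, 29311, 24415 and 25805 in MI rats 1, 3, 4 and 5. The lowest Sham rat was thus well above the highest MI rat. COX1 was 4.26-fold lower in MI (log2 fold change -2.09 ± 0.26 (SE), adjusted p = 1.53e-05).

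ND1, a membrane subunit of complex I and the mRNA next to the rRNA genes, stood at 22234, 18468, 26634 and 24055 CPM in Sham and at 4799, 6091, 5251 and 5667 in MI. It was 4.19-fold lower (-2.07 ± 0.22, adjusted p = 3.18e-06), and the groups were far apart. ND4, whose level carries the uncertainty given above, had the most negative value of the mRNAs and was at 2901, 2234, 2443 and 2197 CPM in Sham and 357, 540, 424 and 728 in MI, a log2 fold change of -2.25 ± 0.24. Among the MI rats, number 5 was the highest for ND4. CYTB went from 35277 to 8355 CPM in group means (-2.08 ± 0.25), ND4L from 1989 to 458 (-2.12 ± 0.31) and ND5 from 11285 to 2826 (3.99-fold lower). These mRNAs lay at the lower end of the changes.

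The remaining mRNAs lay between -1.98 and -1.64. ND3 and COX2 went from 4065 to 1034 and from 26635 to 6779 CPM in group means (-1.98 ± 0.22 and -1.97 ± 0.23). COX3, ATP6 and ND2 followed at -1.81 ± 0.20, -1.77 ± 0.23 and -1.73 ± 0.22, with group means that went from 43814 in Sham to 12519 in MI, from 41257 to 12138 and from 17551 to 5276 CPM. ND6, the mRNA coded on the minus strand, was at 2711, 2025, 3282 and 2979 CPM in Sham and 637, 944, 782 and 896 in MI (-1.75 ± 0.28, adjusted p = 1.25e-04), and no MI rat reached the Sham range. ATP8 had the mRNA value nearest to 0 (-1.64 ± 0.24), at 24.9 CPM in Sham and 7.95 in MI. The 13 standard errors ran from 0.20 to 0.31, so the order of neighbouring mRNAs is not resolved.

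Both rRNAs were lower too, 12S by a value inside the range of the mRNAs and 16S by one nearer to 0 than any mRNA. That difference was tested only against ND1 and 12S rRNA, as the ratios given below. 12S rRNA stood at 2983, 2585, 3291 and 2736 CPM in Sham and at 678, 1106, 921 and 818 in MI, which is 3.29-fold lower (log2 fold change -1.72 ± 0.19, adjusted p = 5.08e-06). 16S rRNA stood at 2783, 2762, 3298 and 2930 CPM in Sham and at 1349, 1963, 1306 and 1158 in MI, 2.04-fold lower (-1.03 ± 0.19, adjusted p = 4.24e-04). For both, every MI rat lay below the Sham range, and for both MI rat 3 was the highest of its group. With total counts the same 24 genes were called lower, among 18.4% of all genes called lower and 51% called higher, but the mRNA median was -1.40 and 16S rRNA was at -0.45 (1.36-fold lower, adjusted p = 0.0419) with overlapping groups.

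Of the 22 tRNA genes, 60 to 75 bases long, 9 had enough counts to be tested. The 13 others had at most 12 counts in any rat and at most 33 over all 12 rats, and the gene at bases 1 to 67 had none, which allows up to 3 counts per library and covers counting error only. The tRNA gene with the highest level, at bases 15348 to 15415 on the minus strand, stood at 121, 119, 122 and 112 CPM in Sham and at 23.1, 29.5, 31.7 and 37.0 in MI (-1.96 ± 0.26, adjusted p = 2.19e-05). The tRNA genes at 5185 to 5252 and 5256 to 5321, also on the minus strand, were at -1.94 ± 0.29 and -1.99 ± 0.39, from 28.4 to 7.39 and from 21.9 to 5.50 CPM. The 6 other tested tRNA genes, at bases 2665, 3835, 5081, 7693, 9800 and 14062, had group means of 1.04 to 15.5 CPM in Sham and log2 fold changes from -2.78 to -1.40. The strand of the reads is not known here, so reads of a tRNA gene and of a precursor passing over it on the opposite strand cannot be told apart.

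**Figure D3:**
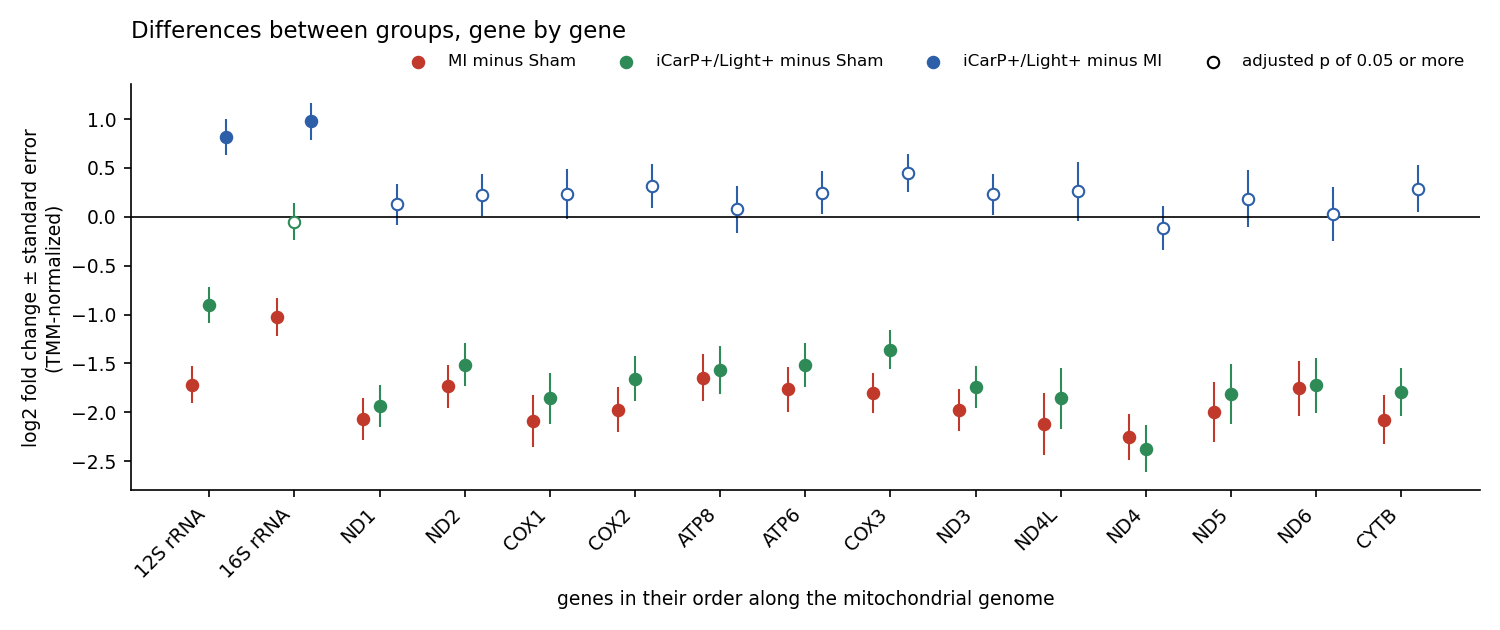
The plot gives the log2 fold change ± standard error on the TMM scale for the 2 rRNAs and 13 mRNAs in map order, in red for MI minus Sham, green for iCarP+/Light+ minus Sham and blue for iCarP+/Light+ minus MI. Filled points had an adjusted p below 0.05. All mRNAs lie between -2.37 and -1.36 against Sham, and against MI the filled points are 12S (0.82) and 16S rRNA (0.98).

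Treated infarcted hearts were compared with untreated ones to see whether mitochondrial transcripts stood differently with the illuminated algal patch. Both rRNAs were higher in treated than in untreated infarcted hearts, and none of the 13 mRNAs or 9 tRNAs passed the test in either direction. Among all genes tested 11.6% were called higher and 2.01% lower in this comparison. 16S rRNA stood at 2199, 3707, 2636 and 2826 CPM in iCarP+/Light+ rats 1, 2, 4 and 5, against 1158 to 1963 in the MI rats. Every treated rat was above every MI rat, with iCarP+/Light+ rat 2 the highest. The level was 1.97-fold higher (log2 fold change 0.98 ± 0.19, adjusted p = 0.00397).

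12S rRNA stood at 1377, 2104, 1361 and 1359 CPM in the iCarP+/Light+ rats against 678 to 1106 in the MI rats. Again every treated rat was above every MI rat, and iCarP+/Light+ rat 2 stood apart from the other 3. The level was 1.76-fold higher (0.82 ± 0.19, adjusted p = 0.00986). Every treated rat lay above every MI rat for 12.1% of all genes tested. Without iCarP+/Light+ rat 2 or any other single rat both calls stood, with 12S rRNA between 0.63 and 0.94 and 16S rRNA between 0.82 and 1.16. With total counts both were also called higher (12S 0.55 ± 0.17, adjusted p = 0.0362, and 16S 0.70 ± 0.18, adjusted p = 0.0159), among 7.97% of genes called higher and 18% lower, but on that scale the 2 groups overlapped for both. The neutrophil and red blood cell markers moved in the same comparison, as given above, and their part in the rRNA levels was not tested. Nor was the part of a possible removal of rRNA before sequencing.

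For each mRNA the treated rats overlapped the MI rats. COX1 stood at 40543, 34811, 20843 and 19419 CPM in iCarP+/Light+ rats 1, 2, 4 and 5, so rats 1 and 2 were above the MI range and rats 4 and 5 inside it. The log2 fold change was 0.23 ± 0.25 (adjusted p = 0.624). ND1 stood at 8200, 6597, 4596 and 4443 CPM, with rats 1 and 2 above and rats 4 and 5 below the MI range (0.13 ± 0.21, adjusted p = 0.759). COX3 had the highest mRNA value, at 20372, 21312, 12653 and 13939 CPM against 10882 to 13677 in MI, with iCarP+/Light+ rat 4 inside the MI range (0.45 ± 0.20, adjusted p = 0.175). ND4 had the lowest value, at 596, 539, 348 and 407 CPM against 357 to 728 in MI (-0.12 ± 0.23, adjusted p = 0.799), and 1 treated rat was below the MI range and 3 inside it.

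The other 9 mRNAs lay between 0.03 (ND6) and 0.32 (COX2), with adjusted p values between 0.426 and 0.963. Their log2 fold changes were 0.22 for ND2, 0.23 for ND3, 0.26 for ND4L, 0.19 for ND5, 0.29 for CYTB, 0.24 for ATP6 and 0.08 for ATP8, each with a standard error of 0.21 to 0.30. In 12 of the 13 mRNAs the value was above 0 with TMM and in 3 of 13 with total counts, so their direction depends on the scale. The mRNA median was 0.23 with TMM and -0.03 with total counts, against 0.01 and -0.25 for all genes. With 1 rat left out, the TMM median of the 24 tested mitochondrial genes, 0.22 with every rat, ran from 0.009731 without iCarP+/Light+ rat 1 to 0.34 without iCarP+/Light+ rat 4. The 9 tRNAs ran from -0.34 to 1.22, all with adjusted p of 0.400 or more, and the highest was the gene at 7693 with 0 to 20 counts per rat.

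The treated hearts were also set against sham surgery, with the same Sham rats as above. All 13 mRNAs were lower in iCarP+/Light+ than in Sham, with log2 fold changes from -2.37 (ND4) to -1.36 (COX3) and a median of -1.75, and every treated rat lay below every Sham rat. 12S rRNA was 1.87-fold lower (-0.90 ± 0.19, adjusted p = 8.09e-04), and the groups did not overlap. 16S rRNA did not pass the test, at 2842 CPM in treated and 2943 in Sham rats as group means (-0.05 ± 0.19, adjusted p = 0.831), and the treated rats lay below, inside and above the Sham range. Of the 9 tRNAs 8 were lower and the gene at 7693 did not pass. In all 22 of 24 genes were called lower, with 33% of all genes called lower, 33.5% higher, and 31.6% with every treated rat below every Sham rat. With total counts the same number was called lower, among 24.1% of all genes lower and 44.1% higher, and 16S rRNA was at 0.26 (adjusted p = 0.218), so the sign of its value depends on the scale. ND1 was at 5959 CPM in treated and 22848 in Sham rats (-1.94 ± 0.21), COX1 at 28904 and 104625 (-1.86 ± 0.26), and CYTB at 10197 and 35277 (-1.79 ± 0.25).

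**Figure D4:**
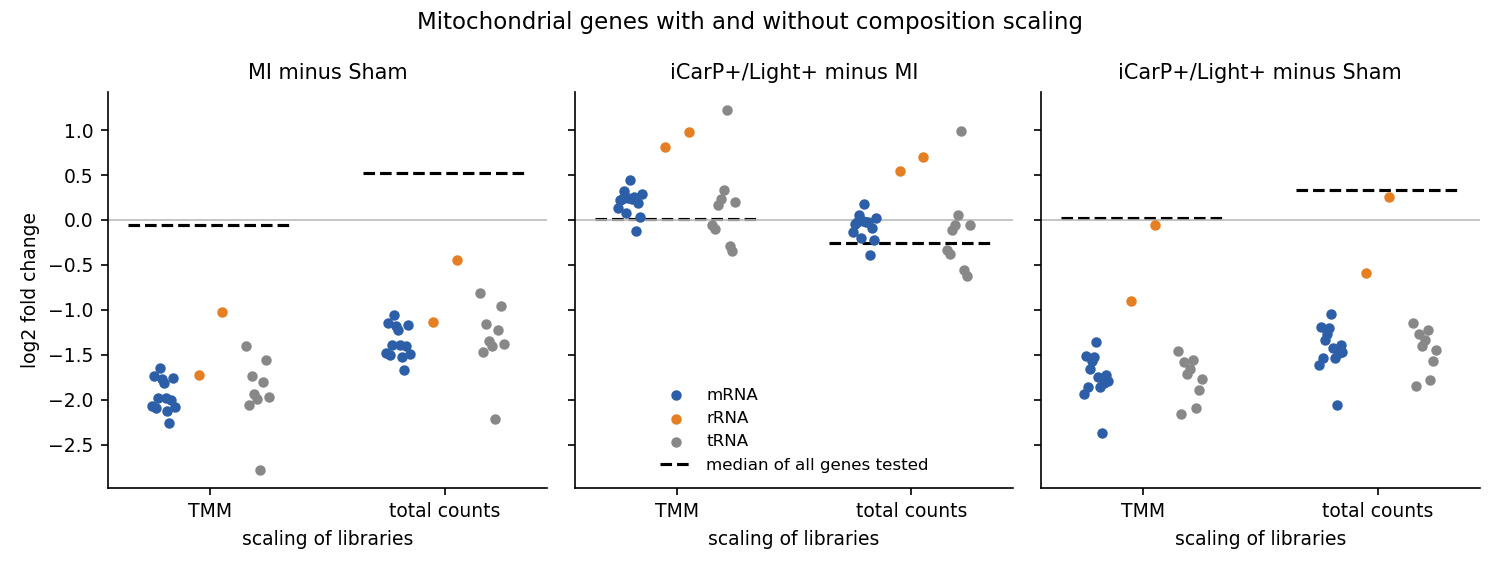
Each point is a tested gene of the mitochondrial genome (13 mRNAs, 2 rRNAs, 9 tRNAs), with its log2 fold change after TMM scaling and after scaling by total counts alone, in the 3 comparisons. The dashed line is the median of all 15101 genes tested, which moves from -0.06 to 0.52 for MI minus Sham and from 0.01 to -0.25 for iCarP+/Light+ minus MI, and the mitochondrial genes move with it.

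Ratios of 2 genes within a library do not depend on how libraries are scaled, and 3 were compared in the 3 pairs of groups. They are ratios of raw counts, to be compared between rats and not read as relative abundance. A selection of RNA before sequencing, if made, may act unlike on rRNAs and mRNAs, and its part here was not tested. The test was an exact permutation test, two-sided, in which 4 rats and 4 rats can be arranged in 70 ways and no p can be below 0.0286, and the 9 p-values were adjusted by Benjamini-Hochberg.

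16S rRNA to ND1 sets the large rRNA against the mRNA gene next to it on the same strand. It was 0.125, 0.150, 0.124 and 0.122 in the Sham rats, 0.281, 0.322, 0.249 and 0.204 in the MI rats, and 0.268, 0.562, 0.574 and 0.636 in iCarP+/Light+ rats 1, 2, 4 and 5. Each infarcted rat was above every Sham rat, and iCarP+/Light+ rat 1 lay inside the MI range while the 3 others lay above it. The ratio was 2.01-fold higher in MI and 3.74-fold higher in iCarP+/Light+ than in Sham (exact p = 0.0286 each, adjusted p = 0.0515). Between iCarP+/Light+ and MI the fold was 1.86 (exact p = 0.0857, adjusted p = 0.11).

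16S rRNA to 12S rRNA was 0.933, 1.07, 1.00 and 1.07 in the Sham rats, 1.99, 1.78, 1.42 and 1.42 in the MI rats, and 1.60, 1.76, 1.94 and 2.08 in the iCarP+/Light+ rats. Both infarcted groups lay above Sham without overlap, and they overlapped each other. The fold was 1.60 for MI against Sham and 1.80 for iCarP+/Light+ against Sham (exact p = 0.0286 each, adjusted p = 0.0515), and 1.12 for iCarP+/Light+ against MI (exact p = 0.343).

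ND6 to CYTB sets the mRNA of the minus strand against one of the plus strand. The strand of the reads is not known here, so reads of ND6 and of a precursor on the opposite strand cannot be told apart. It was 0.0781, 0.0709, 0.0807 and 0.0802 in Sham, 0.0948, 0.102, 0.103 and 0.0913 in MI, and 0.0938, 0.0736, 0.0833 and 0.0684 in iCarP+/Light+. The MI rats all lay above the Sham rats. Of the treated rats, number 1 lay inside the MI range, number 2 inside the Sham range, number 4 between the ranges and number 5 below both. The fold was 1.26 for MI against Sham (exact p = 0.0286, adjusted p = 0.0515), 0.81 for iCarP+/Light+ against MI (exact p = 0.0571, adjusted p = 0.0856) and 1.02 for iCarP+/Light+ against Sham (exact p = 0.771). No ratio had an adjusted p below 0.05, and 5 of the 9 tests reached the smallest p that 4 rats against 4 allow.

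**Figure D5:**
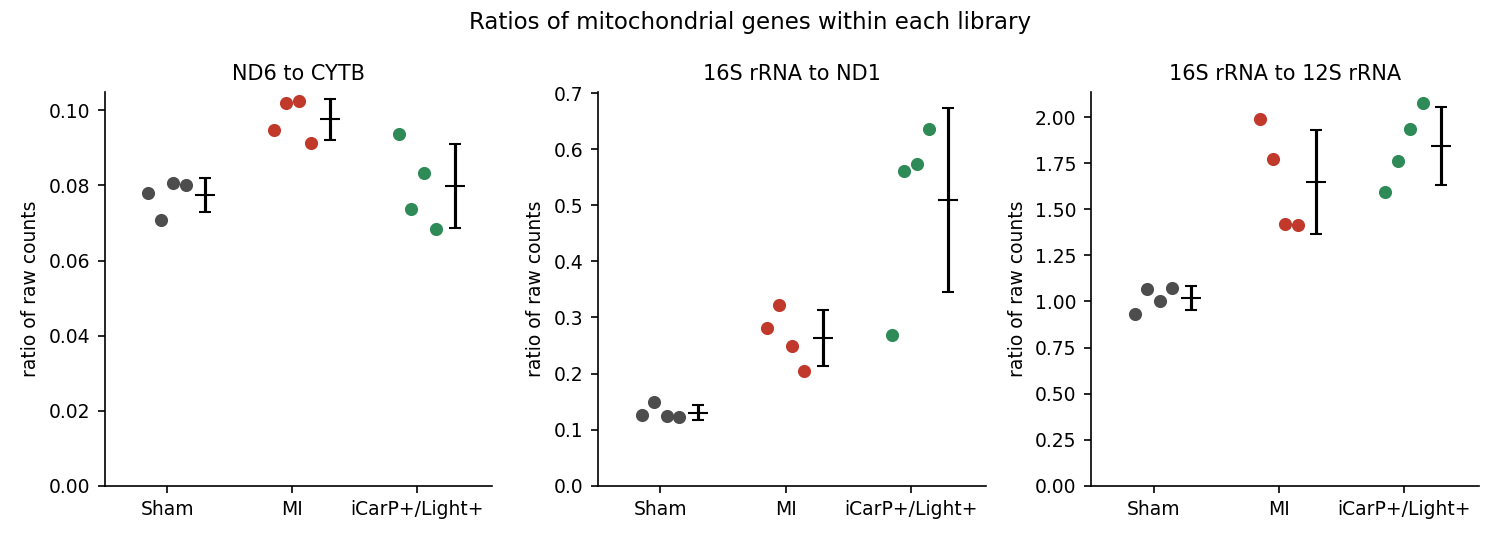
Points are the ratios of raw counts in each rat (4 per group) and the bar beside them is the mean ± SD. For 16S rRNA to ND1 the Sham rats lie at 0.122 to 0.150, the MI rats at 0.204 to 0.322 and the iCarP+/Light+ rats at 0.268 to 0.636.

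Nuclear genes whose products work with the mitochondrial genome were taken from lists of subunits and factors. Of 71 nuclear subunits of the respiratory chain and ATP synthase tested, 69 were lower in MI than in Sham and none was higher, where 33.6% of all genes were lower and 30.2% higher, and the median log2 fold change was -1.98, the same to 2 decimals as the median of the 13 mitochondrial mRNAs. By complex, 33 of 35 for complex I, 4 of 4 for complex II, 8 of 8 for complex III, 10 of 10 for complex IV and 14 of 14 for ATP synthase were lower. Complex II, succinate dehydrogenase, has no subunit coded in mitochondria, and its genes Sdha, Sdhb, Sdhc and Sdhd were at -2.11, -1.90, -1.95 and -2.17. Ndufs1 of complex I was at -2.60, Uqcrc1 of complex III at -1.98, Cox4i1 of complex IV at -1.74 and Atp5f1a of ATP synthase at -2.28, each called lower. Ndufs1 had the lowest value of its list, and the medians of the lists were -1.94, -2.05, -2.16 and -1.98 in the same order.

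The genes that copy, process and keep mitochondrial RNA and DNA were pooled with 11 nuclear regulators of mitochondrial biogenesis. This pool is called the RNA and DNA genes, and it was split. Of its 54 genes tested, 30 were lower and 9 higher in MI than in Sham, with a median of -0.41. The same 33.6% and 30.2% of all genes stand beside them. By list, calls lower and higher were 6 and 1 of 10 for transcription, and 13 and 1 of 21 for RNA processing and stability. They were 5 and 5 of 12 for DNA maintenance and 6 and 2 of 11 for the regulators. Polrmt, the mitochondrial RNA polymerase, went from 41.7 to 18.3 CPM (-1.19 ± 0.12, adjusted p = 1.83e-06). Tfb2m, which melts the promoter with it, was at -1.20 ± 0.15 and Tefm, its elongation factor, at -1.38 ± 0.18, both called lower. Tfam, which packs mitochondrial DNA and starts its transcription, did not pass the test with TMM (51.0 CPM in MI against 59.8 in Sham, -0.23 ± 0.13, adjusted p = 0.146). It was at 0.35 with total counts (adjusted p = 0.0301) and at -0.32 without MI rat 4 (adjusted p = 0.0437), so its call depends on the scale and on 1 rat, and its sign on the scale.

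Lrpprc and Slirp, partners that stabilise mitochondrial mRNAs, were at -1.20 ± 0.12 and -0.72 ± 0.18 and called lower (the groups overlapped for Slirp), and so was Twnk, the mitochondrial DNA helicase, at -0.78 ± 0.15. With total counts Slirp and Twnk were at -0.15 and -0.20 and not called, and with total nuclear counts Slirp was at -0.43 and not called. Polg, the catalytic subunit of the mitochondrial DNA polymerase, was higher, at 80.6 CPM in MI against 52.7 in Sham (0.61 ± 0.10, adjusted p = 1.18e-04). Of the regulators of mitochondrial biogenesis, Ppargc1a, a transcriptional coactivator, went from 24.1 to 3.12 CPM (-2.95 ± 0.40) and its partner Esrra, a nuclear receptor, from 169 to 88.1 CPM (-0.94 ± 0.15), both called lower. With total counts the RNA and DNA genes were 17 lower and 20 higher, beside 18.4% of all genes lower and 51% higher.

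Between iCarP+/Light+ and MI none of the 71 nuclear subunits passed the test with TMM, with a median of -0.09, against 0.23 for the mitochondrial mRNAs, none of which passed either. Of the 54 RNA and DNA genes 3 were higher and none lower, a smaller share than the 11.6% of all genes called higher. The pooled count is therefore no result about these genes. None of the genes that copy, process or keep mitochondrial RNA and DNA was called with TMM. All 3 called were among the 11 regulators of biogenesis, a larger share but of few genes. The 3 were Esrra (0.61 ± 0.15, adjusted p = 0.0165), Nrf1 (0.51 ± 0.13, adjusted p = 0.0207) and Gabpb1 (0.76 ± 0.18, adjusted p = 0.0109), transcription factors of nuclear genes for mitochondria, of which the latter pair was chosen after values were seen. None of these 3 was called with total counts or without iCarP+/Light+ rat 5, and only Gabpb1 was called with total nuclear counts, with a replicate block or without MI rat 5. Nrf1 was also lost in a fit on the rats of these groups alone and without MI rat 3 or iCarP+/Light+ rat 4. With total counts 6 of the subunits and 17 of the RNA and DNA genes were lower, beside 18% of all genes lower and 7.97% higher. The subunits' share was below that of all genes, and the share of the RNA and DNA genes above it. With TMM none of either set was lower, so these counts depend on the scale. Against Sham, 70 of the 71 subunits were lower in iCarP+/Light+ (median -1.98), as were 28 of the 54 RNA and DNA genes, with 10 higher, beside 33% of all genes lower and 33.5% higher.

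The mitochondrial RNAs were also set against other counts of the same library. Per count of the 73 nuclear subunit genes, the mitochondrial mRNAs had 5.59 to 8.47 counts in the Sham rats, 6.30 to 7.96 in the MI rats and 7.81 to 10.2 in the treated rats, so MI lay inside the Sham range and iCarP+/Light+ overlapped both. Per count of the 17 cardiomyocyte markers, the mRNAs had 3.07 to 4.35 counts in the Sham rats, 7.27 to 10.9 in the MI rats and 9.30 to 13.0 in the treated rats, and the rRNAs 0.0628 to 0.0792, 0.194 to 0.329 and 0.252 to 0.777. Both infarcted groups lay above Sham on these marker ratios and overlapped each other. These sums over genes are descriptions, with no test.

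Ratios of 1 mitochondrial to 1 nuclear subunit of the same complex were added after values had been seen, with adjustment over their 12 tests. Each depends on the subunit taken as partner, and Ndufs1 and Atp5f1a were both further from 0 than the median of their lists in MI minus Sham, Ndufs1 furthest of all in its list. ND1 to Ndufs1 was 26.0, 20.3, 31.2 and 27.4 in Sham, 40.6, 36.5, 36.5 and 38.4 in MI and 47.1, 43.7, 42.8 and 43.5 in iCarP+/Light+. The 3 groups did not overlap, with a fold of 1.47 for MI against Sham and 1.17 for iCarP+/Light+ against MI (exact p = 0.0286 each, adjusted p = 0.0572). ATP6 to Atp5f1a lay at 9.17 to 11.97 in the Sham rats, 14.2 to 15.6 in the MI rats and 17.5 to 20.8 in the treated rats, again without overlap, with folds of 1.43 and 1.30 (exact p = 0.0286 each, adjusted p = 0.0572). CYTB to Uqcrc1 and COX1 to Cox4i1 overlapped in every pair of groups, with folds of 0.94 and 0.79 for MI against Sham (exact p = 0.6 and 0.114) and 1.27 and 1.23 for iCarP+/Light+ against MI (exact p = 0.114 and 0.171).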

How the data were processed

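RNA-seq count data of 12 rat LV samples were analysed, 4 per group, with groups taken from the treatment label. The deposited table holds raw counts per gene, which the authors made from total RNA libraries (NEBNext Ultra kit); the submitters' processing notes name HISAT2, featureCounts and build rn6, and the versions, the counting options, the use of strand and any selection of RNA are not given in the sources used here. Reads that fit several genes or nuclear copies of mitochondrial sequence could therefore have been lost or moved.

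Genes were filtered with filterByExpr (minimum count 10), scaled with TMM and tested in edgeR 4.0.16 (R 4.3.3) by the quasi-likelihood test, with all 12 rats and 1 mean per group. P-values were adjusted by Benjamini-Hochberg over the 15101 genes tested, with a threshold of 0.05, and the standard error is the log2 fold change divided by the root of F. The 3 comparisons share groups. The study's methods give general tests and none for gene counts in particular. Alternatives were scaling by total counts, by total nuclear counts, by nuclear TMM factors and by DESeq2 size factors, DESeq2 1.42.0 itself, other filters on low counts, a fit on the groups compared alone, a replicate block, and leaving out each rat. On simulated data the test called most of the larger changes and missed many of the smaller ones, so an uncalled gene may still differ, and the recovery asked of this check was lowered after its first result, which fell short. Figures were drawn with matplotlib 3.10.9.

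All 37 genes listed on MT were kept. The mRNAs are named as in the table, the rRNAs by their order and length, and the tRNAs by their position. The 13 mRNAs and 2 rRNAs are given in full, and of the tRNAs those with over 10 counts on average in a group and the 3 highest. The nuclear genes named are listed factors and 1 subunit per complex, with all of complex II, and also Nrf1 and Gabpb1, chosen after their values were seen. The genes, the lists and the tests were chosen with earlier results of these data known. Nuclear genes listed at 2 loci were left out of the lists. No libraries were duplicates: counts of rats within a group differed by a chi-square per gene of 14 or more over 18 pairs. The floor of 3 counts given for a gene at 0 covers counting error only.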

Additional observations from a re-analysis of the deposited data

Results flagged for a closer look

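In 4 of 57 groups of 4 rats a single rat stood apart from the other 3 on the log2 scale, by a gap to its nearest neighbour that took more of the group's range than Dixon's critical value allows, where chance gives 2.85. For 12S rRNA, iCarP+/Light+ rat 2 stood above the others, at 2104 against 1359 to 1377 CPM, with a gap of 0.969 of the range. For ND3, MI rat 1 stood below the others, at 828 against 1084 to 1114 CPM, with a gap of 0.906. For the ratio of 16S rRNA to ND1, Sham rat 2 was above its group, at 0.150 against 0.122 to 0.125, with a gap of 0.867. For the same ratio iCarP+/Light+ rat 1 was below its group, at 0.268 against 0.562 to 0.636, with a gap of 0.857.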

How the results depend on the processing

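Every call among the mitochondrial mRNAs and rRNAs stood under the 9 other settings tried and with each rat left out, and the values that changed sign were ones that had not passed the test. For iCarP+/Light+ minus MI, 12S rRNA ran from 0.55 to 0.84 (highest adjusted p = 0.0479, edgeR or DESeq2) and 16S rRNA from 0.70 to 1.03 over those settings. Of all 807 values under the other settings 747 counted as unchanged, and of 1224 with a rat left out 1196 did. A tested value was unchanged if it kept its direction and side of the threshold. Counts of calls, medians, shares and ratios with a rat left out have no threshold, and were unchanged if they moved little. For medians, shares and ratios this was set by their spread between rats.

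With libraries scaled by total counts, the median of the mitochondrial genes was -1.37 for MI minus Sham, -0.05037 for iCarP+/Light+ minus MI and -1.40 for iCarP+/Light+ minus Sham. The RNA and DNA genes were then 17 lower and 20 higher for MI minus Sham, with Tfam at 0.35, and 16 higher for iCarP+/Light+ minus Sham, where 16S rRNA was at 0.26. For iCarP+/Light+ minus MI, 6 nuclear subunits and 17 RNA and DNA genes were lower and 0 RNA and DNA genes higher, and the mRNAs that turned negative were ND1 (-0.13), ND2 (-0.04772), COX1 (-0.02761), ATP8 (-0.20), ATP6 (-0.01669), ND3 (-0.02723), ND4L (-0.01848), ND5 (-0.08647) and ND6 (-0.23).

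With total nuclear counts the medians were -1.64 for MI minus Sham and -0.03532 for iCarP+/Light+ minus MI, and for MI minus Sham 19 RNA and DNA genes were lower and 16 higher, with Tfam at 0.06557. For iCarP+/Light+ minus MI, 4 subunits and 15 RNA and DNA genes were lower and 1 higher, and ND1 (-0.12), ND2 (-0.03158), COX1 (-0.01075), ATP8 (-0.19), ATP6 (-0.0002319), ND3 (-0.01018), ND4L (-0.00374), ND5 (-0.07075) and ND6 (-0.21) were negative. The size of these shifts follows from the scale, which moves every gene in a comparison together.

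For iCarP+/Light+ minus MI, 2 RNA and DNA genes were lower when each rat had to have 10 counts, with DESeq2 size factors and with nuclear TMM factors, and 4 in DESeq2. ND6 was at -0.02159 with DESeq2 size factors, -0.02161 in DESeq2, -0.009447 with nuclear TMM factors, -0.03131 with 10 counts in every rat and -0.007595 in a fit on the rats of these groups alone. The cause was not tested.

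The rat numbers did not pair the rats, with correlations of same-numbered rats' deviations of -0.15 to 0.0654. With a replicate block, 1 RNA and DNA gene was higher for iCarP+/Light+ minus MI, where ATP8 was at -0.01915, and 16S rRNA was at 0.04815 for iCarP+/Light+ minus Sham. Over all genes the block gave 141 lower and 1157 higher calls for iCarP+/Light+ minus MI, against 304 and 1747 without it.

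With each rat left out in turn, the values for iCarP+/Light+ minus MI ran from -0.06026 to 0.3166 for ATP8, -0.3011 to 0.1473 for ND6, -0.2573 to 0.09887 for ND4, -0.06678 to 0.2331 for ND1, -0.004674 to 0.3183 for ND3 and -0.05056 to 0.3937 for ND5. Calls ran from 0 to 1 for subunits lower, 0 to 2 for RNA and DNA genes lower and 0 to 4 higher; 1 subunit and 1 RNA or DNA gene were lower without iCarP+/Light+ rat 1, 1 RNA or DNA gene without iCarP+/Light+ rat 5 and 2 without MI rat 5. 16S rRNA for iCarP+/Light+ minus Sham ran from -0.2008 to 0.05808, and was above 0 without Sham rat 3 or iCarP+/Light+ rat 1. The low counts of the tRNAs limit what can be seen of 13 of the 22.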
